A study of Mus musculus with 8 samples.

Results

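Imprinted genes are read from only 1 parental copy, and 10 of them that lie outside chromosome 7 are described here: Dlk1, Meg3, Igf2r, Airn, Grb10, Mest, Peg10, Sgce, Plagl1 and Impact. They were taken by symbol from the 24421 genes in each table, and all 10 were found and passed the filter on low counts. The 8 libraries come from hybrid mouse embryonic stem cells that carry a CAST/Ei and a 129/Sv/Jae genome, in a study of how the Xist RNA spreads. The 4 groups, of 2 libraries each, are HNRNPK 6A mutant cells at day 14 of differentiation (6A day 14), wild-type cells at day 14 (WT day 14), undifferentiated 6A cells (6A day 0) and undifferentiated wild-type cells (WT day 0). HNRNPK is an RNA-binding protein that links Xist to Polycomb repression (the sources used here do not say which residues 6A changes). Day 0 cells had been kept on a layer of irradiated embryonic mouse fibroblasts that was taken off before harvest, whereas day 14 cells had left leukemia inhibitory factor and passed through embryoid bodies, plated at day 5. The sources used here do not state the direction of the cross, so neither genome can be called the maternal or the paternal one.

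Imprinting rests on DNA methylation placed in the egg or the sperm and kept in the embryo by the zinc finger protein ZFP57, its cofactor TRIM28 and DNA methyltransferases. In mouse, Dlk1, Airn, Mest, Peg10, Sgce, Plagl1 and Impact are known as paternally expressed. Meg3 and Igf2r are known as maternally expressed, and Grb10 is so in most tissues but paternally expressed in neurons. Many imprinted genes act on growth: Igf2r removes the growth factor IGF2, Grb10 dampens insulin and IGF receptor signalling, and Dlk1 is a Notch pathway ligand that holds progenitors back from differentiation. Airn is a long noncoding RNA that silences Igf2r and the Slc22a genes beside it in cis, and in mouse trophoblast stem cells HNRNPK is linked to the Polycomb marks that Airn brings, as it is for Xist.

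Total counts were 8146684 to 15540163 a library, and 29.1 to 31.6% of them were assigned to a genome. Summed over 8 pluripotency genes, levels were 603 and 615 CPM in 6A and 443 and 473 CPM in WT cells at day 14, and 4510 to 4840 CPM in the 4 day 0 libraries. CPM are counts scaled to the TMM-adjusted size of the library. At day 14, 6 cardiac genes summed to 211 and 219 CPM in 6A and 1300 and 1490 CPM in WT cells, and 6 blood genes to 105 and 107 CPM in 6A and 10.8 and 11.8 CPM in WT cells. Of 8 neural genes 6 were called lower in 6A cells at day 14, where 8.31% of all genes were. Dcx (log2 fold change -4.11 ± 0.29) and Map2 (-2.75 ± 0.16) were among them (edgeR adjusted p = 2.4e-06 and 1.9e-07). In the same comparison 3 of 6 trophoblast genes and 2 of 8 yolk sac endoderm genes were called higher, against 5.33% of all genes. DESeq2 called 1 of the yolk sac genes, Cubn. The trophoblast sum was nevertheless lower, with 359 and 329 CPM in 6A and 402 and 365 CPM in WT cells. The yolk sac sum was 265 and 289 CPM in 6A and 200 and 182 CPM in WT cells. RNA from Y-linked genes (6 genes, of which Usp9y and Zfy1 were at 0 in every library) summed to 43.4 and 46.9 CPM in 6A and 28.3 and 28.2 CPM in WT cells at day 0. At day 14 the same sum was 0.0966 CPM in 1 6A library and 0 in the other 3. A list of 14 fibroblast genes, none at 0, summed to 2380 and 3040 CPM in 6A and 2130 and 2150 CPM in WT cells at day 0, and to 11900 and 16400 CPM in 6A and 11800 and 13600 CPM in WT cells at day 14. With time 10 of the 14 rose and 4 fell in 6A cells, and 11 rose and 3 fell in WT cells. Thy1, 1 of those that fell, averaged 7.29 CPM in 6A and 10.1 CPM in WT cells at day 14. At day 0 it averaged 186 CPM in 6A and 174 CPM in WT cells. Postn, 1 of the larger number that rose, averaged 558 CPM in 6A and 709 CPM in WT cells at day 14. At day 0 it averaged 57.7 CPM in 6A and 40 CPM in WT cells. The part of cell make-up and of feeder RNA in the results below was not tested.

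Promoter windows in RefSeq (GRCm38.p6, 250 bases before to 50 after a start) were matched to 7 of the 10 genes, in 11 windows, and 5 of them are shown as examples, chosen after their letters were seen. Capitals mark TGCCGC on either strand, GCGGCA being its reverse complement, the hexamer that ZFP57 binds when methylated. Plagl1 is at chr10:13090582-13090881 (plus strand), Mest at chr6:30737800-30738099 (plus), Meg3 at chr12:109540746-109541045 (plus), Airn at chr17:12741061-12741360 (plus) and Igf2r at chr17:12769657-12769956 (minus).
Plagl1: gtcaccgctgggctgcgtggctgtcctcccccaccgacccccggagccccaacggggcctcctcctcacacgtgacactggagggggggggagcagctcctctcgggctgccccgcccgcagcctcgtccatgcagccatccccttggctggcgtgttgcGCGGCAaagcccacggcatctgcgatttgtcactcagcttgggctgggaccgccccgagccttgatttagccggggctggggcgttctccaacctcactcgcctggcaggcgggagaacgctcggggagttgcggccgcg
Mest: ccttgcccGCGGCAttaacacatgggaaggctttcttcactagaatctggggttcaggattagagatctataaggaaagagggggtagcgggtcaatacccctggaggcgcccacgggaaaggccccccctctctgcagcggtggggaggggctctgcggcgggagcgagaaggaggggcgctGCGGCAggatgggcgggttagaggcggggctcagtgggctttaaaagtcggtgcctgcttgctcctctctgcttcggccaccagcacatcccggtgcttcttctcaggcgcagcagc
Meg3: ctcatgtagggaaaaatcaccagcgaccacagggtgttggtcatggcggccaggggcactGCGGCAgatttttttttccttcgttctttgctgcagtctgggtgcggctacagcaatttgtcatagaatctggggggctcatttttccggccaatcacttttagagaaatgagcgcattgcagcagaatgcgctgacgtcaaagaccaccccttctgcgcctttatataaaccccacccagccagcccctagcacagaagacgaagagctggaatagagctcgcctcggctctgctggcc
Airn: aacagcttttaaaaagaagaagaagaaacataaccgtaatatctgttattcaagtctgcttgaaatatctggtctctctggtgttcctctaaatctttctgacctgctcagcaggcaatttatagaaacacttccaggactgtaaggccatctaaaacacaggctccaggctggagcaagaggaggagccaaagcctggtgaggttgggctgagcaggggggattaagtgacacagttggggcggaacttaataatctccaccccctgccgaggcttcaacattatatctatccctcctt
Igf2r: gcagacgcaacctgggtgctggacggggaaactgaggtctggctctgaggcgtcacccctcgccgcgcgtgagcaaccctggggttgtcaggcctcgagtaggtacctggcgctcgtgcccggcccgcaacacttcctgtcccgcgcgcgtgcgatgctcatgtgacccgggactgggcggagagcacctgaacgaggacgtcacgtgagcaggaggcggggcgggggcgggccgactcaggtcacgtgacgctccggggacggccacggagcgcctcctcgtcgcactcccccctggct
The hexamer was found 1 time in the Plagl1 window, 2 times in the Mest window and 1 time in the Meg3 window, and 11.6% of the 32851 windows in the table hold it. The Airn and Igf2r windows do not have these letters. Of the windows not shown, 1 of Grb10 has the hexamer and the other has none, the Dlk1 window and a second window each of Meg3 and Mest have none, and the third Mest window nearly repeats the one printed. CpG dinucleotides numbered 26 for Plagl1, 17 for Mest, 13 for Meg3, 3 for Airn, 34 for Igf2r, 9 for Dlk1 and 45 for the Grb10 window with the hexamer, against a median of 7 over all windows. A match is a description of the letters only.

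Between day 0 and day 14 most of these genes changed by large amounts. In 6A cells 7 were higher at day 14 and 2 lower, and in WT cells 7 were higher and 3 lower (edgeR quasi-likelihood test, adjusted p under 0.05). Of all 15458 genes tested, 71.9% were called in 6A cells (35.4% higher and 36.6% lower) and 75.2% in WT cells (38.4% higher and 36.8% lower), so a call is common for any gene here. The higher ones were Dlk1, Meg3, Airn, Mest, Peg10, Sgce and Plagl1, and the lower ones Igf2r and Grb10, with Impact added in WT cells. All 6 of the higher genes other than Meg3 are among the 7 known as paternally expressed, while Igf2r and Grb10 are 2 of the 3 known as maternally expressed. Meg3, known as maternally expressed, rose, and Impact, known as paternally expressed, was lower in WT cells. Whether direction goes with parental origin was not tested.

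**Figure D1:**
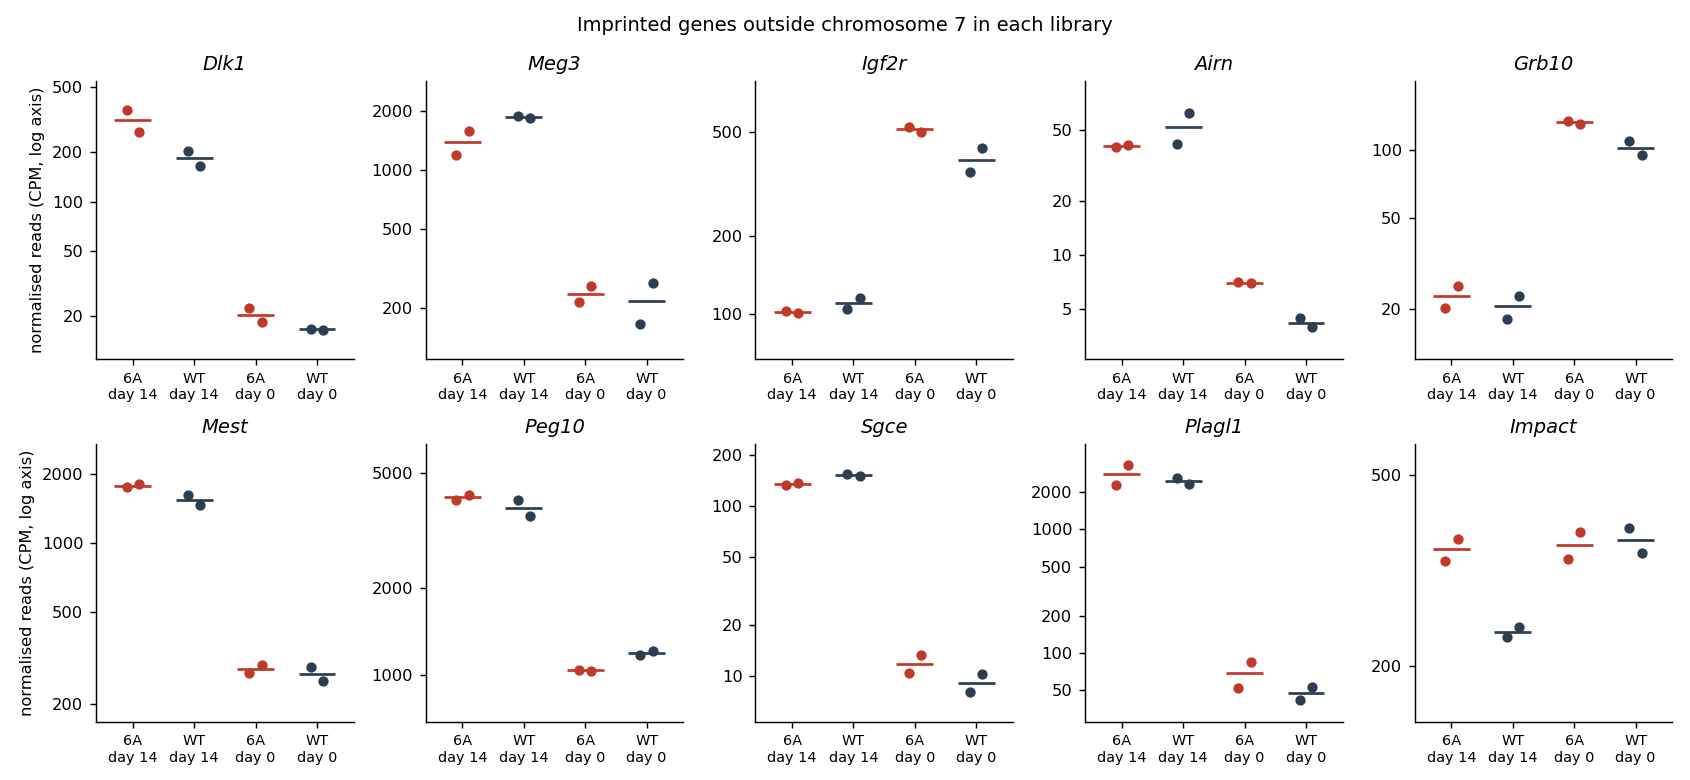
Level of each of the 10 imprinted genes in every library, in CPM on a log axis, for 6A and WT cells at day 14 and at day 0; points are libraries and bars are group means. 7 genes sit higher at day 14 in both genotypes, Igf2r and Grb10 sit lower, and Impact is lower at day 14 in WT cells.

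Plagl1, a zinc finger transcription factor that restrains proliferation (mm10, chromosome 10, 13060504 to 13131694, plus strand), had the largest change of the 10 genes. It was read at 2280 and 3310 CPM in 6A and 2600 and 2340 CPM in WT cells at day 14, against 51.9 and 84.8 CPM in 6A and 41.3 and 52.4 CPM in WT cells at day 0. The log2 difference of day 14 from day 0 was 5.35 ± 0.30 in 6A (SE, edgeR adjusted p = 5.4e-07) and 5.71 ± 0.31 in WT cells (adjusted p = 3.4e-07). No day 14 library came near a day 0 library, and the 2 genotypes overlapped at each day.

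Dlk1 and Meg3 share a cluster on chromosome 12. Dlk1 (109452823 to 109463336, plus strand) was read at 362 and 266 CPM in 6A and 203 and 164 CPM in WT cells at day 14, and at 22.5 and 18.5 CPM in 6A and 16.8 and 16.5 CPM in WT cells at day 0. The day 14 level was 15.4-fold the day 0 level in 6A (log2 3.94 ± 0.18, edgeR adjusted p = 4.1e-10) and 11.0-fold in WT cells (log2 3.46 ± 0.18, adjusted p = 1.3e-09). Meg3, a long noncoding RNA (109541001 to 109571726, plus strand), was read at 1200 and 1590 CPM in 6A and 1890 and 1850 CPM in WT cells at day 14, and at 214 and 257 CPM in 6A and 165 and 266 CPM in WT cells at day 0. Both genes thus rose at day 14 in both genotypes, Meg3 by 2.57 ± 0.23 in 6A (edgeR adjusted p = 3.9e-06) and 3.11 ± 0.23 in WT cells (adjusted p = 9.4e-07) on the log2 scale. Meg3 overlaps Mir770 and Mir1906-1 on its strand and Gm26906 on the other, so reads of the overlaps cannot be given to 1 gene.

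Rian and Mirg, noncoding RNAs that follow Meg3 in the cluster, rose too. Rian averaged 1130 ± 29.7 CPM in 6A and 946 ± 19.9 CPM in WT cells at day 14 (SD, n = 2 each), against 265 ± 5.52 in 6A and 231 ± 1.4 CPM in WT cells at day 0. Its log2 difference of day 14 from day 0 was 2.09 ± 0.11 in 6A and 2.03 ± 0.11 in WT cells (edgeR adjusted p = 1.2e-09 and 1.3e-09). Mirg differed by 1.81 ± 0.14 in 6A and 1.67 ± 0.14 in WT cells (edgeR adjusted p = 5.0e-08 and 1.0e-07). Rian and Mirg were chosen after their values were seen.

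Igf2r and Airn lie on opposite strands of chromosome 17 and overlap: Igf2r spans 12682406 to 12769664 on the minus strand, and Airn starts inside it and spans 12741311 to 12860136 on the plus strand. Igf2r was read at 103 and 101 CPM in 6A and 105 and 115 CPM in WT cells at day 14, and at 522 and 501 CPM in 6A and 351 and 432 CPM in WT cells at day 0. It was 5.01-fold lower at day 14 in 6A (log2 -2.33 ± 0.13, edgeR adjusted p = 1.9e-09) and 3.56-fold lower in WT cells (log2 -1.83 ± 0.12, adjusted p = 1.3e-08). Airn moved the other way, with 39.8 and 41.1 CPM in 6A and 41.5 and 62.1 CPM in WT cells at day 14, against 7.10 and 6.94 CPM in 6A and 4.44 and 3.95 CPM in WT cells at day 0. Its log2 difference of day 14 from day 0 was 2.53 ± 0.19 in 6A (edgeR adjusted p = 5.4e-08) and 3.64 ± 0.21 in WT cells (adjusted p = 3.0e-09). The libraries were directional, but the sources used here do not state the strand setting of the counting, so reads from the overlap of Igf2r and Airn may have been split or lost.

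Grb10, the adaptor that dampens insulin and IGF receptors (chromosome 11, 11930508 to 12038683, minus strand), fell with Igf2r. It was read at 20.2 and 25.4 CPM in 6A and 18.2 and 23.0 CPM in WT cells at day 14, against 133 and 130 CPM in 6A and 109 and 94.5 CPM in WT cells at day 0. That was 5.77-fold lower in 6A (log2 -2.53 ± 0.15, edgeR adjusted p = 5.9e-09) and 4.89-fold lower in WT cells (log2 -2.29 ± 0.16, adjusted p = 1.3e-08). In these bulk samples, fewer cells that express a gene and less of its RNA per cell cannot be told apart.

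The 3 genes of chromosome 6 all rose at day 14. Mest, a protein of the endoplasmic reticulum with a hydrolase fold (30723547 to 30748465, plus strand, overlapping Copg2 on the other strand and Mir335 on its own), was read at 1760 and 1810 CPM in 6A and 1620 and 1470 CPM in WT cells at day 14, and at 271 and 294 CPM in 6A and 289 and 250 CPM in WT cells at day 0. Peg10, a protein of retrotransposon origin that the placenta needs (4747306 to 4760517, plus strand), was read at 4030 and 4200 CPM in 6A and 4010 and 3550 CPM in WT cells at day 14, and at 1040 and 1030 CPM in 6A and 1170 and 1210 CPM in WT cells at day 0. Sgce, epsilon-sarcoglycan, a membrane protein whose human counterpart is mutated in myoclonus-dystonia, starts beside Peg10 and runs the other way (4674350 to 4747207, minus strand). It was read at 133 and 138 CPM in 6A and 156 and 150 CPM in WT cells at day 14, against 10.3 and 13.2 CPM in 6A and 8.02 and 10.2 CPM in WT cells at day 0. Head to head, Sgce and Peg10 rose by different amounts: Sgce by 3.52 ± 0.15 in 6A and 4.04 ± 0.16 in WT cells, and Peg10 by 2.00 ± 0.12 in 6A and 1.67 ± 0.12 in WT cells, on the log2 scale. Mest rose by 2.66 ± 0.12 in 6A and 2.52 ± 0.12 in WT cells, and the edgeR adjusted p of these 6 differences ran from 8.8e-11 (Sgce in WT) to 1.5e-08 (Peg10 in WT).

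Impact, which inhibits the amino acid sensing kinase GCN2, was the exception (chromosome 18, 12955852 to 12992950, plus strand). It was read at 332 and 369 CPM in 6A and 230 and 241 CPM in WT cells at day 14, and at 335 and 381 CPM in 6A and 388 and 344 CPM in WT cells at day 0. The WT day 14 libraries were thus the low ones, and the other 6 ran from 332 to 388 CPM. Impact fell by 0.64 ± 0.12 on the log2 scale in WT cells (edgeR adjusted p = 0.00024) and differed by -0.03 ± 0.12 in 6A cells (adjusted p = 0.82).

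The second comparison asks what the 6A mutation did at day 14. Dlk1 and Impact were higher in 6A cells and none of the 10 genes was lower, and over all 15458 genes 13.6% were called (5.33% higher and 8.31% lower). A count of 2 of 10 is near the 13.6% called either way, though both were higher, where 5.33% of all genes were. The median log2 difference was 0.13 over the 10 genes and 0.00 over all genes tested.

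**Figure D2:**
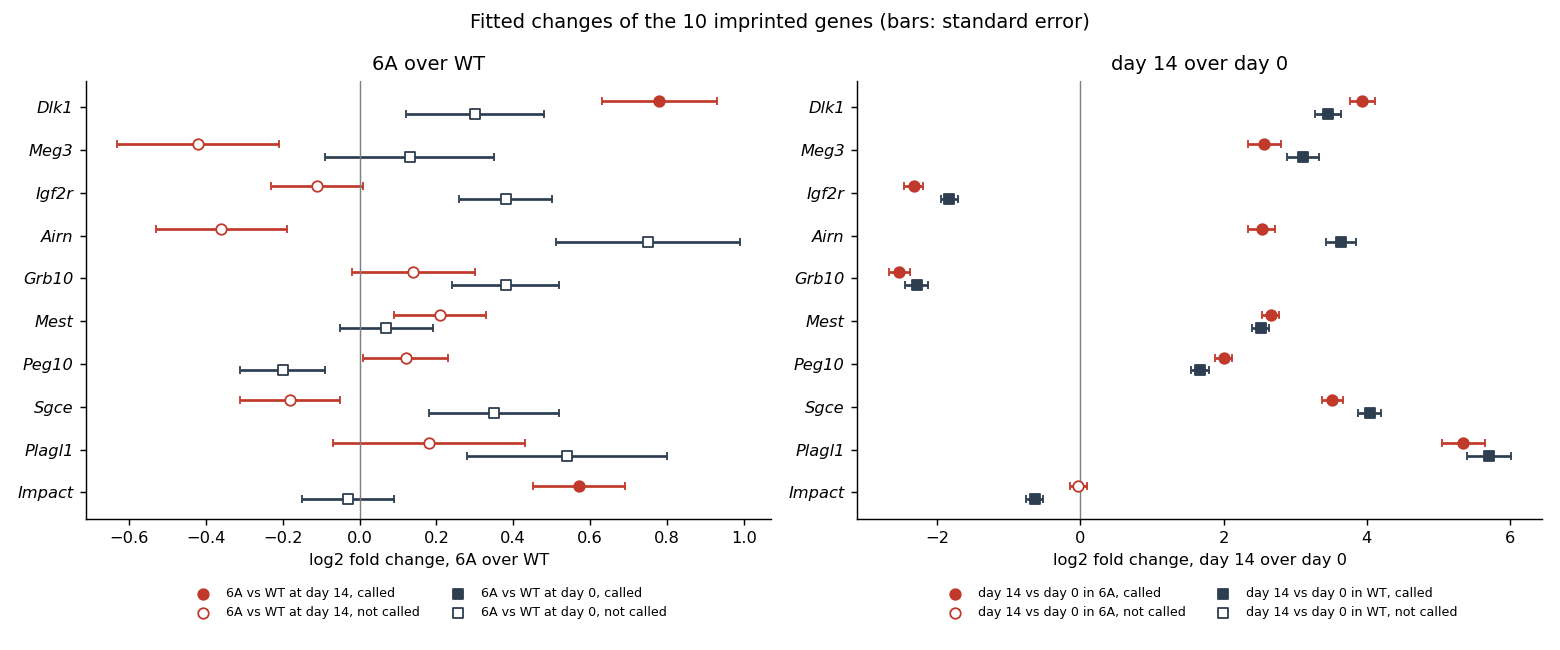
Left: log2 fold change of 6A over WT at day 14 (red circles) and day 0 (dark squares); right: log2 fold change of day 14 over day 0 in 6A (red circles) and WT cells (dark squares); bars are 1 standard error of the edgeR model and filled symbols are called. On the left, Dlk1 at 0.78 and Impact at 0.57 are the filled symbols, while on the right every symbol but that of Impact in 6A cells is filled.

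Dlk1 averaged 314 ± 67.8 CPM in 6A and 183 ± 27.1 CPM in WT cells at day 14 (SD, n = 2 each), a difference of 1.71-fold (log2 0.78 ± 0.15, edgeR adjusted p = 0.0042). Impact averaged 351 ± 26.1 CPM in 6A and 236 ± 7.73 CPM in WT cells, 1.49-fold higher (log2 0.57 ± 0.12, edgeR adjusted p = 0.0048). At day 14 only Plagl1 and Grb10 of the 10 genes overlapped between genotypes. The share of all genes that overlapped was not counted, and genes without a call, such as Igf2r (edgeR adjusted p = 0.63), were also apart. In Dlk1 and in Impact each 6A library lay above each WT library. Either call rests on single libraries: Dlk1 had an edgeR adjusted p of 0.070 (log2 0.54) without 6A day 14 replicate 1 and of 0.083 (0.63) without WT day 14 replicate 2. Impact had 0.061 (log2 0.50) without 6A day 14 replicate 2 and 0.060 (0.54) without WT day 14 replicate 1.

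The other 8 genes did not pass at day 14. Meg3 averaged 1400 ± 280 CPM in 6A and 1870 ± 29.7 CPM in WT cells (SD, n = 2 each; log2 -0.42 ± 0.21, edgeR adjusted p = 0.25), while Rian beside it had a log2 difference of 0.26 ± 0.10 (adjusted p = 0.13). Airn averaged 40.5 ± 0.945 CPM in 6A and 51.8 ± 14.6 CPM in WT cells (log2 -0.36 ± 0.17, edgeR adjusted p = 0.19), where 1 WT library stood at 62.1 CPM and the other at 41.5 CPM. The differences of Igf2r (-0.11 ± 0.12), Sgce (-0.18 ± 0.13), Mest (0.21 ± 0.12), Peg10 (0.12 ± 0.11), Plagl1 (0.18 ± 0.25) and Grb10 (0.14 ± 0.16) had edgeR adjusted p of 0.28 to 0.72.

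In undifferentiated cells none of the 10 genes was called between 6A and WT cells by edgeR or by DESeq2, and 1.58% of all genes were called by edgeR (1.06% higher and 0.518% lower). At an unadjusted edgeR p under 0.05 there were 3, all higher in 6A cells, where 16.4% of all genes passed that threshold and 9.99% did so as higher. Igf2r averaged 511 ± 14.9 CPM in 6A and 391 ± 57.4 CPM in WT cells (SD, n = 2 each; log2 0.38 ± 0.12, edgeR adjusted p = 0.13). Airn averaged 7.02 ± 0.109 CPM in 6A and 4.20 ± 0.345 CPM in WT cells (log2 0.75 ± 0.24, edgeR adjusted p = 0.13), from 36 to 104 reads a library. Grb10 averaged 132 ± 1.77 CPM in 6A and 102 ± 9.98 CPM in WT cells (log2 0.38 ± 0.14, edgeR adjusted p = 0.20). The Y-linked sum given above was also higher in the 6A day 0 libraries, and its part in these differences was not tested.

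The 7 remaining genes at day 0 had log2 differences of 0.54 ± 0.26 for Plagl1, 0.35 ± 0.17 for Sgce, 0.30 ± 0.18 for Dlk1, 0.13 ± 0.22 for Meg3, 0.07 ± 0.12 for Mest, -0.03 ± 0.12 for Impact and -0.20 ± 0.11 for Peg10. Their edgeR adjusted p ran from 0.32 to 0.93. The median of the 10 genes was 0.32, against 0.01 over all genes tested.

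Whether the 6A difference itself changed with the day was tested as a genotype by day interaction, and 4.74% of all genes were called (1.4% higher and 3.34% lower). Airn was the 1 gene of the 10 called, with a 6A difference 1.12 ± 0.29 lower at day 14 than at day 0 on the log2 scale (edgeR adjusted p = 0.044): it stood at 40.5 CPM in 6A and 51.8 CPM in WT cells at day 14, and at 7.02 CPM in 6A and 4.20 CPM in WT cells at day 0. The call was lost with DESeq2 (-1.06, adjusted p = 0.075) and with size factors in place of TMM (-1.07, edgeR adjusted p = 0.053), and in 7 of the 8 fits that leave out 1 library, with edgeR adjusted p of 0.063 to 0.16; over all alternatives it ran from 0.019 to 0.16. Without WT day 14 replicate 2, the library with 62.1 CPM, the value was -0.79. Impact came next, with 0.60 ± 0.17 (edgeR adjusted p = 0.054), and it was called by DESeq2 (0.66, adjusted p = 0.016). Igf2r had -0.49 ± 0.17 (edgeR adjusted p = 0.13) and Sgce -0.52 ± 0.21 (adjusted p = 0.20).

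Other imprinted genes outside chromosome 7 were followed as a list of 36, of which 30 were tested. At day 14, 3 were higher and 2 lower in 6A cells, close to the 13.6% of all genes, and the list's median difference was -0.10. Dcn, a matrix proteoglycan imprinted in the mouse placenta, averaged 386 ± 23.7 CPM in 6A and 198 ± 6.67 CPM in WT cells (SD, n = 2 each; log2 0.97 ± 0.12, edgeR adjusted p = 0.00011). Sfmbt2, a Polycomb group protein gene, averaged 69.0 ± 8.93 CPM in 6A and 37.2 ± 2.49 CPM in WT cells (log2 0.89 ± 0.13, edgeR adjusted p = 0.00048). Cobl, the neighbour of Grb10, was also higher (0.46 ± 0.14, edgeR adjusted p = 0.041). The lower ones were Asb4, of the Peg10 and Sgce cluster (-0.86 ± 0.13, edgeR adjusted p = 0.00074), and Begain, beside Dlk1 (-1.48 ± 0.43, adjusted p = 0.037). DESeq2 did not call Begain, which had 7 and 14 reads in 6A and 27 and 33 reads in WT cells. At day 0 Sfmbt2 was again higher (0.73 ± 0.12, edgeR adjusted p = 0.013) and Asb4 again lower (-1.17 ± 0.26, adjusted p = 0.043). They were the 2 genes of the 30 that edgeR called at that day, where 1.58% of all genes were called. DESeq2 called Sfmbt2 and Dcn at day 0, both higher, and not Asb4. Asb4 was read at 30.1 and 31.0 CPM in 6A and 56.6 and 54.6 CPM in WT cells at day 14, and at 1.37 and 1.13 CPM in 6A and 3.09 and 2.61 CPM in WT cells at day 0. With time, 16 of the 30 rose and 6 fell in each genotype, a total near the 71.9% of all genes called in 6A and 75.2% in WT cells.

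Genes around Airn were looked at because Airn acts in cis. Of 19 genes within the list for that region 14 were tested, and none was called between 6A and WT cells at day 14 or at day 0 by edgeR or by DESeq2. At an unadjusted edgeR p under 0.05 there were 0 at day 14 and 3 at day 0, against 26.4% and 16.4% of all genes. Slc22a3, a target of Airn in the mouse placenta, had 4 and 3 reads in 6A and 2 and 3 reads in WT cells at day 14, and 0 reads at day 0, so it could not be tested.

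A list of 16 factors that place, keep or remove DNA methylation or bind at imprinted regions was followed with time: 12 fell in each genotype, with 2 higher in 6A and 3 higher in WT cells, where 36.6% of all genes fell in 6A and 36.8% in WT cells. The 12 include Tet1, which oxidises methylated DNA (-2.86 in 6A and -2.82 in WT cells on the log2 scale, edgeR adjusted p = 4.5e-10 in each). Zfp57 averaged 63.7 ± 2.03 CPM in 6A and 74.4 ± 6.44 CPM in WT cells at day 14, and 303 ± 13.7 CPM in 6A and 294 ± 28.1 CPM in WT cells at day 0 (SD, n = 2 each). Its log2 difference of day 14 from day 0 was -2.25 ± 0.12 in 6A and -1.98 ± 0.12 in WT cells (edgeR adjusted p = 2.0e-09 and 4.8e-09). Between genotypes at day 14, Dnmt3l (0.71 ± 0.12, edgeR adjusted p = 0.0013) and Dnmt3b (0.68 ± 0.13, adjusted p = 0.0029), which take part in placing DNA methylation, were higher in 6A cells and none was lower. A count of 2 of 16 is near the 13.6% of all genes called either way at day 14 (8.31% lower). Both were higher, however, where 5.33% of all genes were. DESeq2 called 3 of the 16 higher (Dnmt3l, Hells and Dnmt3b) and none lower. At day 0 none of the 16 was called by edgeR or by DESeq2, and 2 had an unadjusted edgeR p under 0.05, against 16.4% of all genes. The summed level of the pluripotency genes, among which 4 of 8 were called higher in 6A cells at day 14, moved with these differences, and its part was not tested.

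Partners of Igf2r, Grb10 and Dlk1 in the IGF and Notch pathways made a list of 20, of which 19 were tested. At day 14, 1 was higher and 7 were lower in 6A cells, where 5.33% of all genes were higher and 8.31% lower. The list's median difference was -0.35 on the log2 scale, against 0.00 over all genes tested. DESeq2 called 1 higher and 5 lower. Igfbp3, which binds IGFs outside the cell, was the higher one (653 ± 25.0 CPM in 6A and 274 ± 20.6 CPM in WT cells, SD, n = 2 each; log2 1.25 ± 0.13, edgeR adjusted p = 2.5e-05). Igfbp5 was lower (-1.04 ± 0.11, edgeR adjusted p = 3.0e-05), as were the receptor Igf1r (-0.43 ± 0.12, adjusted p = 0.032) and its substrate Irs1 (-0.52 ± 0.13, adjusted p = 0.018). In the Notch pathway the ligand Jag1 (-0.66 ± 0.11, edgeR adjusted p = 0.0015) and the target Hey1 (-0.83 ± 0.16, adjusted p = 0.0027) were lower, while Dlk1 was higher. Notch3 was also lower (-0.42 ± 0.12, edgeR adjusted p = 0.033). Hes1 (-0.05 ± 0.12, edgeR adjusted p = 0.84), Notch1 (adjusted p = 0.063) and Notch2 (adjusted p = 0.12) were not called. At day 0 none of the 19 was called by edgeR, and DESeq2 called 1 (Igf2, higher in 6A cells). At that day 5 had an unadjusted edgeR p under 0.05, where 16.4% of all genes did.

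Reads assigned to the 129 or the CAST genome can show which copy of an imprinted gene is used, where both genomes are read. At least 10 reads of each genome, summed over the 8 libraries, were found for 9 of the 10 genes, Grb10 having too few CAST reads. For Dlk1, Meg3, Igf2r, Airn, Mest, Plagl1 and Impact, 129 reads made up 96.5 to 99.1% of allele reads at day 14 as means of a group. Genes nearby that are not on the imprinted lists were read alongside them, leaving out 19 other genes that lie inside the imprinted cluster of Dlk1 and Meg3. Within 3 Mb and with at least 40 allele reads at day 14, the 38 neighbours of Dlk1 and Meg3 had a median 129 share of 99.1%, the 18 of Igf2r 99.0%, the 14 of Plagl1 99.1%, the 21 of Impact 99.0% and the 4 of Grb10 98.9%. The 1-sided reads of these 6 genes and of Airn are therefore shared by their surroundings. Dlk1 and Airn, known as paternally expressed, and Meg3 and Igf2r, known as maternally expressed, were all read mostly from 129. The part of imprinting and that of the lack of a readable CAST copy there were not tested. Of 11546 autosomal genes 32.1% had a 129 share of 20 to 80%, and 7632 genes were over 90%. On the chromosomes of these genes that share of 20 to 80% was found for 1.37% of genes on chromosome 10, 40.7% on 11, 2.06% on 12, 2.51% on 17, 1.8% on 18 and 17.2% on 6, against 95.2% on 13.

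**Figure D3:**
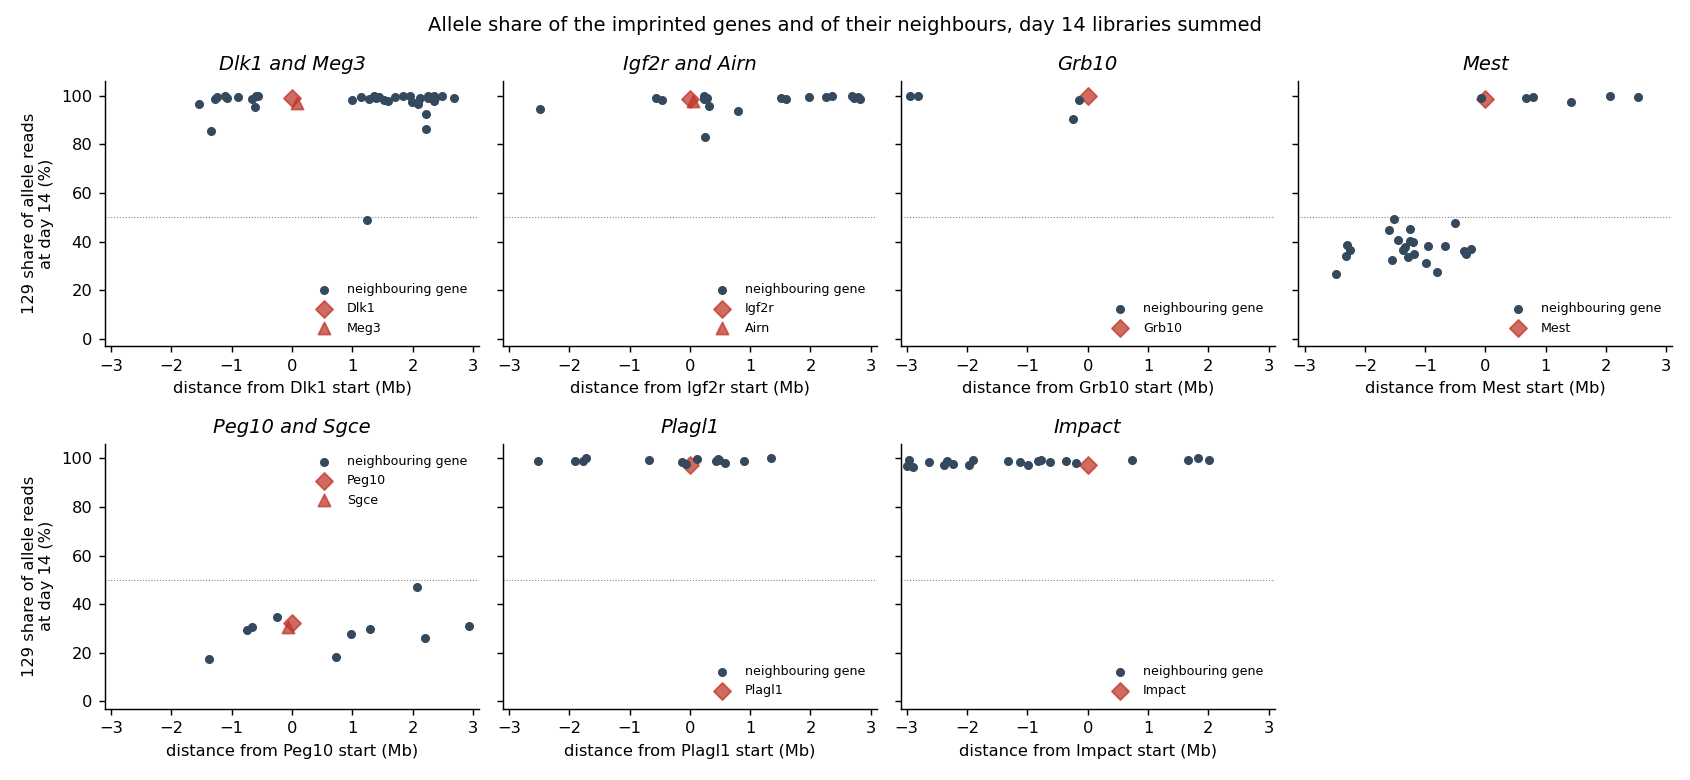
Share of 129 reads among allele reads (%, the 4 day 14 libraries summed) for the imprinted genes (red) and their neighbours within 3 Mb (dark points), by distance in Mb from the start coordinate of the gene named under each axis; the dotted line marks equal reads. Neighbours of Peg10 lie between 17.5 and 47.0%, those of Mest change from under 50% before it to over 97% around and after it, and nearly all others lie near 99%.

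Mest sits at a change along chromosome 6. Its 23 neighbours from the far end of the window up to Tmem209, 0.244 Mb before it, had 129 shares of 26.5 to 49.3%, whereas Cep41, 0.070 Mb before it, had 99.1% and all 5 after it were over 97%. Mest itself had a 129 share of 98.7% ± 0.165 in 6A and 98.6% ± 0.0178 in WT cells at day 14, and 98.9% ± 0.435 in 6A and 98.7% ± 0.829 in WT cells at day 0 (SD, n = 2 each). Its share is thus close to those of Cep41 and the genes after it.

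Peg10 and Sgce were the 2 genes of the 10 that were themselves read in quantity from both genomes, and at day 14 CAST reads outnumbered 129 reads in both. The 129 share of Peg10 was 30.2 and 31.4% in 6A and 33.1 and 34.4% in WT cells at day 14, and 28.2 and 28.3% in 6A and 30.2 and 30.5% in WT cells at day 0, from 3001 to 13471 allele reads a library. Its 10 neighbours had a median of 29.7% and a range of 17.5 to 47.0% at day 14. Peg10 was thus read from both genomes, at a share inside the range of its neighbours at day 14. At day 0 the 8 neighbours with at least 40 allele reads at each day had medians of 43.9% in 6A and 38.7% in WT cells. Those medians are above the day 0 shares of Peg10. At day 14, genes of chromosome 6 up to Mest with shares of 20 to 80% had a median of 36.0% (68 genes), against 49.7% over 3599 such genes of the other autosomes. Col1a2, a collagen gene 0.242 Mb from Peg10, had 33.5 and 34.6% in 6A and 34.9 and 35.8% in WT cells at day 14.

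Sgce had 129 shares of 26.9 and 29.3% in 6A and 31.7 and 33.5% in WT cells at day 14, on the side of CAST as Peg10. At day 0 it had 62.5 and 61.1% in 6A and 41.2 and 53.8% in WT cells, from 17 to 54 allele reads a library. The widest 95% Wilson interval, of WT day 0 replicate 1, ran from 21.6 to 64.0% (intervals cover counting error only). The log2 ratio of 129 to CAST reads of Sgce was lower at day 14 by 2.03 ± 0.41 in 6A cells (edgeR adjusted p = 8.6e-06) and differed by -1.03 ± 0.48 in WT cells (adjusted p = 0.15). Col1a2 moved in the same direction, with 129 shares at day 0 of 64.7 and 61.7% in 6A and 69.6 and 74.6% in WT cells. The part of feeder RNA in the day 0 shares was not tested.

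**Figure D4:**
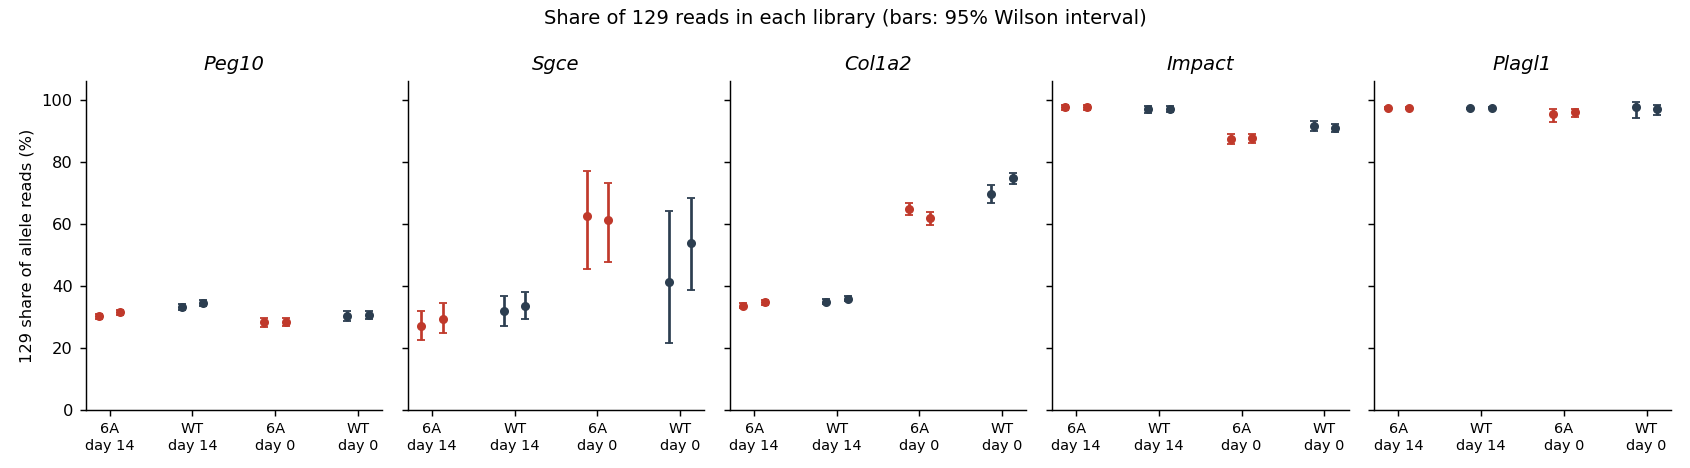
Share of 129 reads among allele reads (%) in each library for Peg10, Sgce, the nearby gene Col1a2, Impact and Plagl1, in 6A (red) and WT cells (dark) at day 14 and day 0, with 95% Wilson intervals. Peg10 lies between 28.2 and 34.4% in every library, Sgce between 26.9 and 33.5% at day 14 and between 41.2 and 62.5% at day 0, and Impact is under 92% at day 0.

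Impact, although mostly read from 129, had CAST reads that fell with time. They made up 2.42 and 2.29% in 6A and 2.99 and 2.92% in WT cells at day 14, and 12.7 and 12.5% in 6A and 8.44 and 9.09% in WT cells at day 0. The log2 ratio of 129 to CAST was higher at day 14 by 2.58 ± 0.22 in 6A (edgeR adjusted p = 5.8e-30) and by 1.66 ± 0.24 in WT cells (adjusted p = 2.4e-10). The CAST share of its neighbours, as group medians, was 1.19% in 6A and 1.15% in WT cells at day 14, and 7.44% in 6A and 7.48% in WT cells at day 0, so genes around Impact showed the same direction. Plagl1 had CAST shares of 2.60 and 2.77% in 6A and 2.81 and 2.58% in WT cells at day 14, and 4.59 and 4.10% in 6A and 2.37 and 2.89% in WT cells at day 0. Its ratio was higher at day 14 in 6A cells (0.70 ± 0.25, edgeR adjusted p = 0.027), a call lost without 6A day 0 replicate 1 (adjusted p = 0.17), 6A day 0 replicate 2 (0.20) or 6A day 14 replicate 1 (0.084).

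Over the 9 genes the 129 to CAST ratio was called for Impact, Sgce and Plagl1 with time in 6A cells, where 19.2% of 12575 genes were called, and for Impact in WT cells, where 16.3% were. Between 6A and WT cells edgeR called none of the 9 at day 14 or at day 0, where 0.0398% and 0.167% of genes were called. In all of the 9 but Peg10 and Sgce, CAST reads were only 1.04 to 7.52% of allele reads over the 8 libraries. Airn had 12 CAST reads in all, Igf2r 35 and Dlk1 44. An absent call in these genes does not show how their copies are used. At an unadjusted p under 0.05, which 3.75% of genes had at day 14 and 6.06% at day 0, there was none at day 14 and 1 at day 0, Impact, with a log2 ratio lower in 6A cells by 0.58 ± 0.18 (edgeR adjusted p = 0.22). Peg10, which had the most allele reads of the genes read from both genomes, differed between 6A and WT cells by -0.20 ± 0.13 at day 14 and -0.15 ± 0.13 at day 0 (edgeR adjusted p = 1.0 and 0.98). Airn had 0 CAST reads of 39 in 6A and of 29 in WT cells at day 0, which allows a CAST share of up to 7.69% in 6A and 10.3% in WT cells.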

How the data were processed

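Total RNA depleted of ribosomal RNA was sequenced as 150-base paired-end reads from directional libraries, per the labels' protocols. Per the submitters' processing notes, the tools were cutadapt 1.4.2 and STAR 2.7.10a, with build mm10. The sources used here do not state the counting tool, its strand setting, the annotation or the way reads were assigned to a genome. Per gene, the deposited tables give raw counts of all reads, of CAST reads and of 129 reads. The series' design sentence names day 7, but day 14 of the titles and protocol was taken. Loci come from GENCODE mouse release 21.

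The 10 genes and the gene lists were chosen with earlier results of these data known. Counts of all reads were tested with edgeR 4.0.16 (R 4.3.3): filterByExpr, TMM, a robust quasi-likelihood fit with 1 coefficient per group over 8 libraries (4 residual degrees of freedom), and Benjamini-Hochberg adjustment over 15458 genes. Allele counts were fitted as paired columns, with 1 coefficient per library and 1 allele coefficient per group, for the 12575 genes that averaged 10 or more allele reads a library. The common biological coefficient of variation was 0.111. An exact two-sided permutation test of 2 libraries against 2 cannot go below p = 0.333, so p-values rest on the spread shared across genes, and that spread, between samples of 1 group, may be technical. Besides the 10 genes, up to 6 called genes of each list by smallest adjusted p were eligible for naming, and the 2 genes closest in pattern to each. The fits were tested on simulated data. DESeq2 1.42.0, other size factors, no filter, a replicate block, 2 groups only and each library left out were tried as alternatives.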

Additional observations from a re-analysis of the deposited data

Results flagged for a closer look

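The 6A difference of Airn was called as unlike at the 2 days in the main fit. The difference at day 14 minus that at day 0 was -1.12 ± 0.29 on the log2 scale (edgeR interaction test, adjusted p = 0.044). The call was lost in 9 of the 12 alternatives run, DESeq2 among them (-1.06, adjusted p = 0.075). With 1 library left out the value ran from -1.37 to -0.79. Neither day was called on its own (edgeR adjusted p = 0.13 at day 0 and 0.19 at day 14). Airn averaged 40.5 CPM in 6A and 51.8 CPM in WT cells at day 14, and 7.02 CPM in 6A and 4.20 CPM in WT cells at day 0 (n = 2 each). At day 0 the libraries stood at 7.10 and 6.94 CPM in 6A and 4.44 and 3.95 CPM in WT cells. At day 14 they stood at 39.8 and 41.1 CPM in 6A and 41.5 and 62.1 CPM in WT cells, barely apart.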

How the results depend on the processing

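All calls with time in the 10 genes held under DESeq2, RLE size factors, no filter, the replicate block, 2 groups only and each library left out, with 9 called in 6A and 10 in WT cells each time. Leaving out 1 library gave 1 to 3 called genes for 6A against WT at day 14, 0 to 1 at day 0 (Igf2r, without WT day 0 replicate 2) and 0 to 3 for the interaction. The interaction had 2 called genes with no filter and 2 with the replicate block. Same-numbered libraries had correlations of their deviations of 0 to 0.24 over all genes tested. Whether they share more than a number was not tested. The block moved the interaction from 733 to 1018 genes called in all and 6A against WT at day 0 from 244 to 466. With only the 2 groups compared, 23 genes were called at day 0. Meg3 at day 14 was called with the replicate block (-0.44, edgeR adjusted p = 0.047), with 2 groups only (-0.43, 0.034) and without WT day 0 replicate 2 (-0.42, 0.050). Airn at day 14 was called lower without WT day 14 replicate 1 (-0.62, edgeR adjusted p = 0.040), and its value was -0.62 to -0.04 with 1 library left out. The time difference of Impact in 6A cells, -0.03, was 0.05 with DESeq2, 0.05 with RLE size factors, 0.01 with no filter, 0.02 with 2 groups only and -0.12 to 0.06 with 1 library left out. With 1 library left out, differences near 0 also changed sign: Plagl1 at day 14 (-0.11 to 0.43), Grb10 at day 14 (-0.03 to 0.32), Meg3 (-0.18 to 0.51), Impact (-0.13 to 0.06) and Mest (-0.03 to 0.17) at day 0, the Plagl1 interaction (-0.67 to 0.04) and the Plagl1 allele ratio with time in WT cells (-0.16 to 0.12). The cause was not tested. With 1 library left, a group is assumed to vary like the others. Depth limits Sgce at day 0 (86 allele reads in 6A and 56 in WT cells) and Airn alleles at day 0 (39 in 6A and 29 in WT cells).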

Other observations

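The genes closest in pattern, by Pearson's r of log2 CPM over the 8 libraries among 11487 genes, are given as a description; the libraries fall into 2 days, which sets most of each value. They were Fkbp10 for Dlk1 (0.9984), Adgra3 for Meg3 (0.9992), Arih2 for Igf2r (0.9984), Sspn for Airn (0.9979) and Usp37 for Grb10 (0.9982). F2r came first for Mest (0.9994), Itga3 for Peg10 (0.9993), Pkia for Sgce (0.9993) and Creb3l2 for Plagl1 (0.9994). Impact had the lowest such value of the 10 genes, 0.9721 with Taf13. None of the 10 imprinted genes was among the 2 closest to another of them.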
